A study of Mus musculus with 4 samples.

Results

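Expression of 10 imprinted growth genes was examined in the proximal tissue of mouse lower incisors, the end of the tooth that holds the stem cells from which the incisor is renewed. The genes were taken by symbol, as the rows for H19, Igf2, Dlk1, Meg3, Rian, Mest, Peg3, Grb10, Plagl1 and Ndn, and all 10 were found among the 32285 genes of the single-cell RNA-seq matrices. The study made 4 libraries from mice 15 days after birth, of which 2 were wild type (WT 1 and WT 2) and 2 were Din-KO (Din-KO 1 and Din-KO 2). The Din-KO mice carried a constitutive null allele of Din, made from a knockout-first allele by Cre and holding a LacZ reporter, so that Din was removed in every cell type. The labels give neither the number of mice in each library nor their strain, and the targeted gene itself was not analysed here, so that the genotype labels were not checked at that gene.

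In an imprinted gene, RNA is made mainly from the copy inherited from the mother or mainly from the copy inherited from the father. Many imprinted genes act in fetal growth, are highly expressed in embryonic mesenchyme, and are switched down after birth. Igf2, a secreted insulin-like growth factor, is expressed from the paternal copy, and H19, a long noncoding RNA next to it, from the maternal copy, with shared enhancers. In the same way Dlk1, a membrane protein with EGF-like repeats that marks preadipocytes and other immature cells, is expressed from the paternal copy, while the noncoding RNAs Meg3 and Rian of that locus come from the maternal copy. UMI counts of the kind used here do not tell the parental copies apart, and none of the values below measures imprinting itself.

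Both clustered loci were read from the GENCODE M21 annotation of GRCm38, the build of the files. H19 lies at chr7:142575529-142578143 on the minus strand, 72.6 kb from Igf2 at chr7:142650766-142666816 on the same strand. Dlk1 lies at chr12:109452823-109463336 on the plus strand, followed by Meg3 at chr12:109541001-109571726 after a gap of 77.7 kb and by Rian at chr12:109603940-109661716 after a gap of 32.2 kb. The other members stand apart from these loci. Mest, a paternally expressed gene for a protein of the hydrolase fold, is at chr6:30723547-30748465, and Peg3, a paternally expressed zinc finger gene, at chr7:6703892-6730431. Grb10, an adaptor that dampens insulin and IGF receptor signalling, is at chr11:11930508-12038683. Plagl1, a zinc finger transcription factor, is at chr10:13060504-13131694, and Ndn, which encodes the MAGE family protein necdin, at chr7:62346569-62350262. The annotated Igf2 gene overlaps Gm49394 on the same strand, and its counts could hold reads of that gene.

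Several of these genes also carry microRNAs, which the libraries do not measure because they capture polyadenylated RNA. The mature sequences below are from RefSeq on GRCm38.p6 and are shown because they are the small RNA products of the same transcription units, with the seed, bases 2 to 8, in capitals. The pair from Mir675 lies in an H19 exon, the pair from Mir483 in an Igf2 intron, miR-770-5p in a Meg3 exon, miR-370-3p in a Rian intron and miR-335-5p in a Mest intron.
mmu-miR-675-5p: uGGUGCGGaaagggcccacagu
mmu-miR-675-3p: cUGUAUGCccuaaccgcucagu
mmu-miR-483-5p: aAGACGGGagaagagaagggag
mmu-miR-483-3p: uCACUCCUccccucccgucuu
mmu-miR-770-5p: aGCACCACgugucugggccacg
mmu-miR-370-3p: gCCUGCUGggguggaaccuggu
mmu-miR-335-5p: uCAAGAGCaauaacgaaaaaugu
The seeds of these 7 sequences all differ from each other.

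After filtering, 11310 cells were kept, between 1272 and 4575 per library, with a median of 8016 to 11587.5 UMIs per cell, and at most 4 cell barcodes were shared by any pair of libraries. The cells fell into 33 clusters, which were named by scores over marker lists, and 9 classes held at least 20 cells in every library. The classes named for dental pulp, dental follicle and odontoblasts are groups of the broader mesenchyme-like class, which held 2624, 793, 2993 and 596 cells in WT 1, WT 2, Din-KO 1 and Din-KO 2. The makeup of that class differed between libraries of the same genotype, with dental pulp-like cells at 58.7%, 30.3%, 69.8% and 33.4% of it and dental follicle-like cells at 11.2%, 47.0%, 9.49% and 44.0%, in the same order. A mesenchyme-like cluster of 1126 cells led by Ifitm1 and Rspo4 scored highest for dental pulp, at 0.95, but was given no subtype. Its 662, 36, 407 and 21 cells, in the same order, are outside these shares and outside all contrasts with dental pulp-like cells. The same holds for the 50, 17, 84 and 13 cells of a cycling mesenchyme-like cluster led by histone genes and Top2a, which also had no subtype. The dental follicle markers summed to 4882 to 5594 CPM (UMIs per 1000000 of the class) in dental follicle-like cells and to 963 to 1173 CPM in dental pulp-like cells. The dental pulp markers did not sum higher in dental pulp-like cells, at 3526 to 3898 CPM, than in dental follicle-like cells, at 3946 to 4741 CPM, so that the first name rests on scores that weight each marker equally. No subtype was set for osteoblasts, whose markers summed to 1626 to 15364 CPM in odontoblast-like cells. Din-KO libraries also held cells with Y-linked RNA and the WT libraries did not, so that the sex of the mice cannot be told apart from genotype in the pooled values.

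The imprinted genes were mainly genes of the mesenchyme in this tissue, and most were also high in perivascular-like cells. By mean level over the 4 libraries, the highest class was a mesenchymal subtype for 9 of 10 members, and for H19 it was the perivascular-like class. The share of all genes with a mesenchymal subtype as their highest class is not given here, so this count has no background. Perivascular-like cells came next for Igf2, Meg3, Rian, Plagl1 and Ndn, with ranges that overlapped those of the highest class for all but Plagl1. H19 reached 502 ± 240 CPM (SD, n = 4) in perivascular-like cells and 445 ± 142 CPM in dental follicle-like cells, ranges that overlapped. In WT the perivascular-like mean was the higher, at 613 CPM against 367 CPM. In Din-KO the dental follicle-like mean was the higher, at 524 CPM against 391 CPM. H19 was next at 117 ± 81.2 CPM in dental pulp-like cells, below every follicle value. In odontoblast-like cells, named for the cells that make dentin, H19 was at 4.58 CPM in WT 1, 2.97 CPM in WT 2, 2.55 CPM in Din-KO 1 and 18.0 CPM in Din-KO 2. In macrophage-like cells, which give the background, it was at 3.92, 16.5, 3.52 and 8.08 CPM in the same order. Only Din-KO 2, with 53 UMIs, lay above the macrophage range, and WT 1, WT 2 and Din-KO 1, with 7 to 10 UMIs each, lay within or below it.

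Igf2 had much the same order of classes as H19. It was measured at 516, 531, 464 and 530.0 CPM in dental follicle-like cells of WT 1, WT 2, Din-KO 1 and Din-KO 2, and at 308, 351, 290.5 and 307 CPM in dental pulp-like cells. All follicle values were therefore above all pulp values. Perivascular-like cells held 489 ± 236 CPM (SD, n = 4), from 366 to 844 CPM, which overlapped the follicle range and lay above every pulp value. Odontoblast-like cells held 26.1 ± 4.79 CPM (SD, n = 4), below every pulp value, beside 16.2 ± 2.02 CPM in macrophage-like cells.

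Dlk1 had another order, with its highest mean in odontoblast-like cells. There its level was 195, 71.4, 454 and 220.0 CPM in WT 1, WT 2, Din-KO 1 and Din-KO 2. Dental pulp-like cells followed at 98.9, 67.4, 249 and 350.2 CPM and overlapped with them. Dental follicle-like cells were lower, at 24.1, 12.7, 102 and 63.3 CPM, a range that overlapped that of the pulp, although the pulp value was higher in each library. Perivascular-like cells held 26.9 ± 5.95 CPM (SD, n = 4), and in macrophage-like cells Dlk1 was at or below 2.50 CPM, with no UMI in WT 2 and Din-KO 2, where the limit that a count of 0 allows was 3.30 and 3.46 CPM.

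The noncoding RNAs of the Dlk1 locus did not share its order. Meg3 was highest in dental follicle-like cells, at 318, 887, 601 and 757 CPM in WT 1, WT 2, Din-KO 1 and Din-KO 2, and averaged 428 ± 245 CPM in perivascular-like, 377 ± 200 CPM in dental pulp-like and 174 ± 46.6 CPM in odontoblast-like cells (SD, n = 4). Rian followed the same order at lower CPM, from 135 ± 32.9 CPM in dental follicle-like to 47.0 ± 10.5 CPM in odontoblast-like cells. The spread between libraries was wide for Meg3, and neighbours in its order overlapped down to the odontoblast-like class.

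The members outside these loci fell into a few patterns. Mest was at 249 ± 58.7 CPM in dental pulp-like and 248 ± 35.5 CPM in dental follicle-like cells (SD, n = 4), and at 40.1 ± 4.77 CPM in odontoblast-like cells. Peg3 was at 302 ± 53.5, 298 ± 69.9 and 201 ± 45 CPM in the pulp, follicle and odontoblast classes in turn, a narrower spread of means than that of Mest. Ndn was likewise close to equal in dental pulp-like, perivascular-like and dental follicle-like cells, at 88.7 ± 13, 87.1 ± 6.82 and 84.0 ± 9.33 CPM, and lower in odontoblast-like cells, at 33.9 ± 9.06 CPM. Plagl1 was highest in dental follicle-like cells, at 142 ± 20.3 CPM, above every value in perivascular-like cells, which averaged 80.7 ± 28.2 CPM.

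Grb10 was high in endothelial cells as well as in the mesenchyme. It reached 211, 225, 236 and 247 CPM in endothelium-like cells of WT 1, WT 2, Din-KO 1 and Din-KO 2, beside 303 ± 77.4 CPM (SD, n = 4) in dental follicle-like and 105 ± 33.1 CPM in dental pulp-like cells. In epithelium-like cells, with a median of 12678 to 24194 UMIs per cell, it was at 7.08 ± 4.29 CPM.

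**Figure D1:**
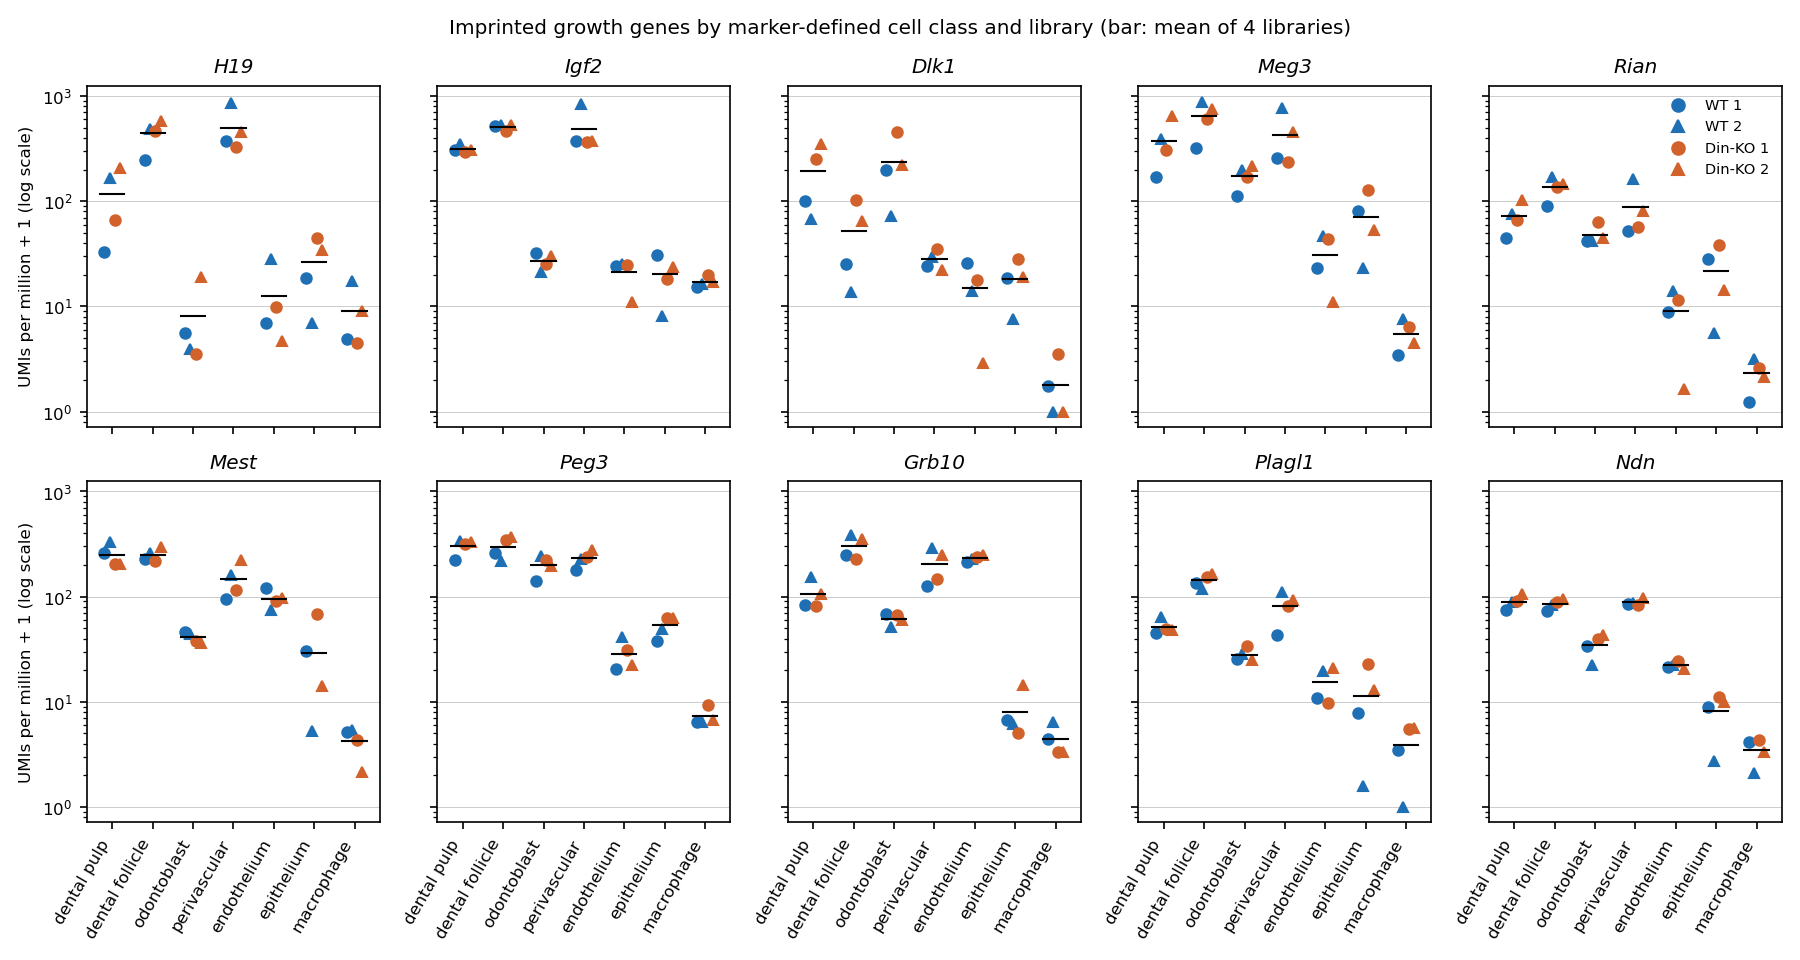
Level of each of the 10 imprinted genes in each cell class, in CPM on a log axis, with 1 point per library and the mean over 4 libraries as a line. Dlk1 is highest in odontoblast-like cells, where H19 and Igf2 are low, and Grb10 is as high in endothelium-like cells as in much of the mesenchyme.

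The share of cells with at least 1 UMI, after each cell was thinned to 2000 UMIs, gave much the same order of the mesenchymal subtypes for Dlk1 and H19. Dlk1 was detected in 31.6% of odontoblast-like, 17.4% of dental pulp-like and 6.19% of dental follicle-like cells, as means over 4 libraries, and in 0.146% of macrophage-like cells, which should lack it. Without thinning these shares were 65.9%, 32.2%, 21.9% and 0.517%. H19 was detected in 36.5% of dental follicle-like, 11.6% of dental pulp-like and 0.75% of odontoblast-like cells, against 1.84% of macrophage-like cells, and in 69.8%, 18.4%, 4.91% and 7.86% without thinning. In perivascular-like cells its share was 29.3%, and 46.6% without thinning. By share H19 was thus highest in dental follicle-like cells, and not in perivascular-like cells as by mean level. These are means over the libraries, and the thinned H19 share of odontoblast-like cells was 0% in WT 1, WT 2 and Din-KO 1 and 3% in Din-KO 2, where the macrophage share was 1.47%.

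The difference between dental follicle-like and dental pulp-like cells was tested within libraries with edgeR's quasi-likelihood test and Benjamini-Hochberg adjustment over 13475 genes. Members had been left out of the genes used for clustering, but the classes come from the same cells, so the tests describe the classes as drawn. The p-values measure how the difference between classes within a library varied from library to library. Of the 10 members, 6 were higher in dental follicle-like cells and 1 was lower, beside 20.5% and 19.6% of all genes tested. H19 was higher by 2.23 ± 0.25 on the log2 scale (SE, adjusted p = 0.000235), Grb10 by 1.55 ± 0.08 (adjusted p = 3.86e-06) and Plagl1 by 1.5 ± 0.13 (adjusted p = 5.32e-05). Rian and Meg3 were higher by 0.97 ± 0.12 and 0.84 ± 0.15, and Igf2 by 0.72 ± 0.07. Dlk1 was the member that was lower, with a log2 fold change of -2.01 ± 0.19 (adjusted p = 8.13e-05). Dlk1 therefore differed from Meg3 and Rian, its neighbours on chromosome 12, in the sign of the change. Mest, Peg3 and Ndn did not pass the threshold of 0.05, with log2 fold changes of 0.02, -0.02 and -0.06.

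Odontoblast-like cells were compared with dental pulp-like cells in the same way over 12184 genes. Of the 10 members, 6 were lower and 0 were higher in odontoblast-like cells, beside 20.4% and 19.3% of all genes tested. H19 and Igf2 had the largest changes, with log2 fold changes of -3.86 ± 0.39 (SE, adjusted p = 0.000341) and -3.30 ± 0.15 (adjusted p = 1.55e-05), and Mest followed at -2.31 ± 0.11. Ndn, Meg3 and Plagl1 were lower with log2 fold changes of -1.11 ± 0.14, -0.70 ± 0.15 and -0.59 ± 0.12. Dlk1 was at 0.62 ± 0.24 (adjusted p = 0.0775) and higher in 3 of 4 libraries. With DESeq2 its adjusted p was 0.0461, and without Din-KO 2 it was called at 0.94, so the call depends on the tool and on that library. With clusters drawn at resolution 0.5 the value was 1.55 and was called. The odontoblast-like class then held 217, 169, 373 and 150 cells in WT 1, WT 2, Din-KO 1 and Din-KO 2, in place of 78, 127, 128 and 101. With the members allowed among the clustering genes, 5 of them were used and the value was 1.48 and was called. Members then helped to draw the classes, so that call is not independent of them. Rian, Peg3 and Grb10 did not pass the threshold, though Peg3 was called without WT 2 (-0.39, adjusted p = 0.0471) and at resolution 0.5 (-0.58, adjusted p = 0.00796). Grb10 was called with the members among the clustering genes (-0.49, adjusted p = 0.0495), where the same limit holds. Odontoblast marker RNA took from 12815 to 59067 CPM of the class in the 4 libraries, and its part in the differences in level was not tested.

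Against other cell types, the whole mesenchyme-like class stood higher for nearly every member. All 10 members were higher than in macrophage-like cells, from 3.94 on the log2 scale for Igf2 to 6.48 for Dlk1, where 37.7% of genes were higher and 28.4% lower. All 10 were also higher than in epithelium-like cells, from 1.88 for Rian to 4.28 for Grb10, where 20.8% of genes were higher and 15.6% lower. Epithelium marker RNA took from 32856 to 338968 CPM of the epithelium-like class across libraries, and its part in these differences was not tested. The calls for Rian, H19 and Meg3 were lost without Din-KO 2, at adjusted p of 0.142, 0.0731 and 0.0843, and that for Rian also without WT 2, at 0.0638. Against endothelium-like cells 9 were higher, from 1.31 for Mest to 4.02 for H19, where 30% of genes were higher and 27.3% lower. Grb10 was the exception, at -0.49 (adjusted p = 0.104), and was called lower without WT 2 (-0.74, adjusted p = 0.0239).

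Of the classes contrasted with the mesenchyme, perivascular-like cells gave the fewest calls, with 8.74% of genes higher and 9.29% lower in mesenchyme-like cells. They were also the smallest of these classes, at 48, 71, 63 and 47 cells in WT 1, WT 2, Din-KO 1 and Din-KO 2. Such shares depend on class size, and the likeness of whole classes was not measured. Dlk1 was higher in mesenchyme-like cells by 2.21 ± 0.32 on the log2 scale (SE, adjusted p = 0.000534) and H19 was lower, at -1.45 ± 0.26 (adjusted p = 0.00215). Mest was higher by 0.72 ± 0.19 (adjusted p = 0.0230) in 3 of 4 libraries, and lost the call without WT 1 (0.48, adjusted p = 0.0684) or without Din-KO 1 (0.67, adjusted p = 0.122). The other 7 members did not pass the threshold, with Igf2 nearest at -0.50 (adjusted p = 0.0506) and called without Din-KO 2 (-0.65, adjusted p = 0.0178).

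**Figure D2:**
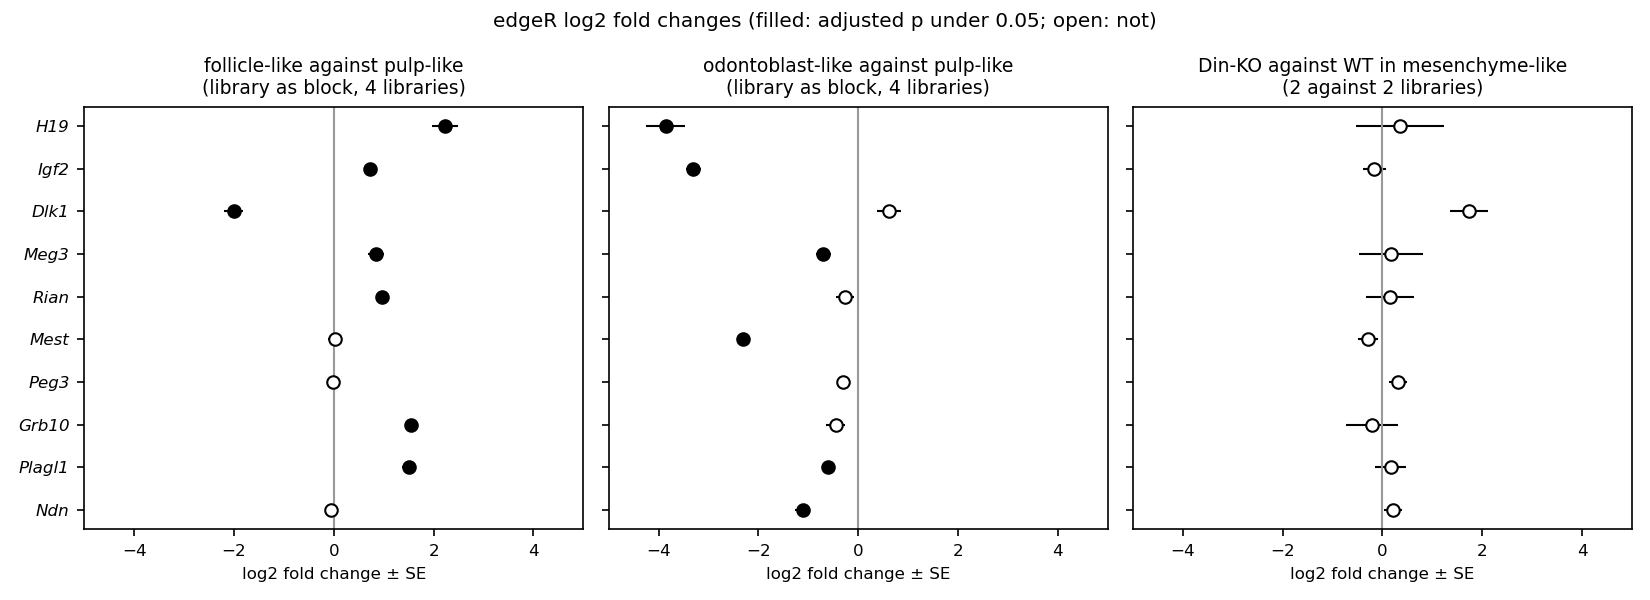
Log2 fold change with its SE for each imprinted gene, from edgeR fits to UMI sums per library, for class contrasts and for Din-KO against WT. Dlk1 is below 0 in dental follicle-like against dental pulp-like cells and above 0 in Din-KO against WT in mesenchyme-like cells, where the fit called no member.

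Within the mesenchyme the members varied strongly from cluster to cluster, which is given as a description, with no test. Clusters are named here by leading genes. A cluster led by Sfrp2, H19 and Pcp4, counted among the dental follicle-like cells, held the highest H19, at 782 CPM in WT 1, 2030 CPM in WT 2, 1280 CPM in Din-KO 1 and 1817 CPM in Din-KO 2. Pcp4 is on the dental follicle list but Sfrp2 is on the dental pulp list, and the cluster scored 1.23 for follicle and 0.60 for pulp. Of the H19 UMIs of dental follicle-like cells, this cluster gave 560 of 1160, 1961 of 3796, 1560 of 2048 and 2118 of 3423, in the same order. It also held the highest Igf2, at 1376, 1889, 1014 and 1315 CPM, and the highest Plagl1, with a mean of 272 CPM. The Smoc2-led cluster, counted as dental pulp-like, was next for H19, at 266, 1492, 330.2 and 992 CPM, and its mean of Meg3, 1048 CPM, was the highest of the 13 mesenchyme-like clusters.

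Igf2 was not tied to H19 across clusters. The largest cluster, of 1588 dental pulp-like cells led by Cldn10 and Enpp2, held Igf2 at 464, 831, 534 and 638 CPM, with H19 at 3.20, 2.42, 5.98 and 111 CPM in WT 1, WT 2, Din-KO 1 and Din-KO 2. H19 in WT 1, WT 2 and Din-KO 1 lay near the macrophage-like background there, and Din-KO 2, which contributed 37 cells, stood apart. Of the UMIs of H19 and Igf2 together, H19 took 0.686%, 0.290%, 1.11% and 14.8% in this cluster, in the same order. The average of 4.22% thus rests on Din-KO 2. On average H19 took 2.32% in a cluster led by Ifitm1 and Rspo4, from 0% to 5.14%. In a dental pulp-like cluster led by Vcan it took 5.77%, from 2.56% to 10.7%. The share was 48.7% in the Smoc2 cluster, from 35.6% to 59.8%, and 50.5% in the Sfrp2 cluster, from 36.2% to 58.0%. In perivascular-like cells it was 50.6%, from 47.3% to 54.6%. The UMIs count tagged transcript ends, so the share is one of counted molecules and was not scaled by gene length.

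**Figure D3:**
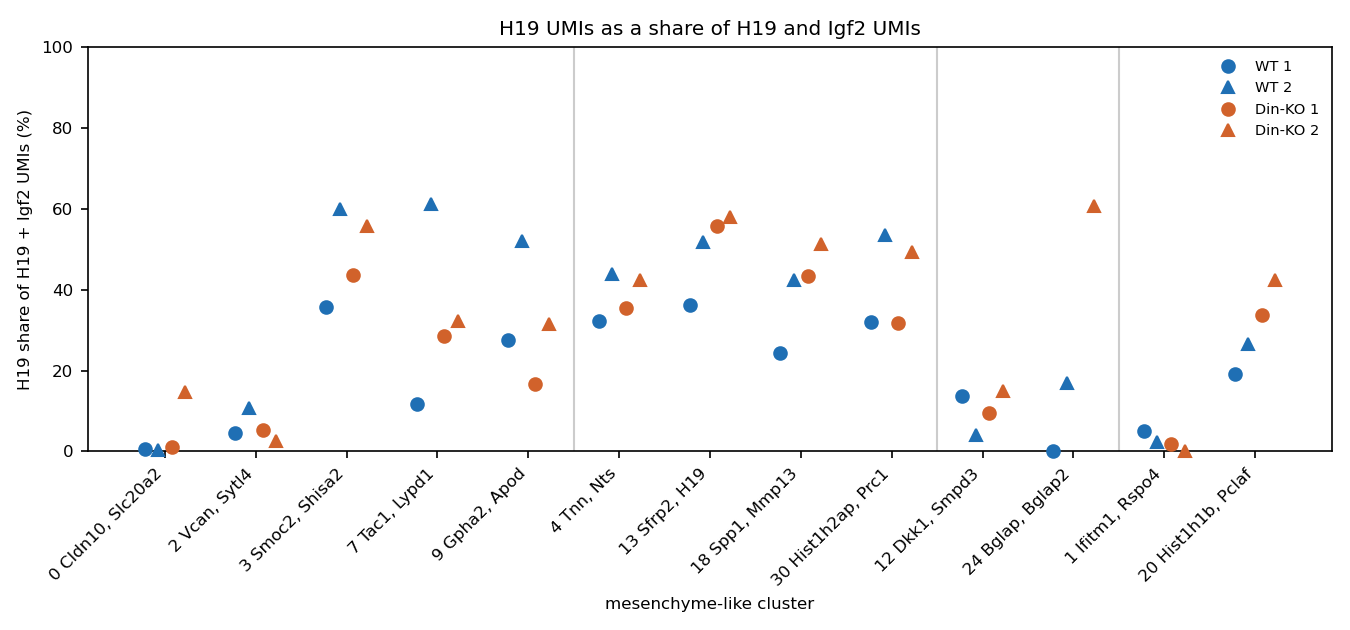
Share of H19 among the UMIs of H19 and Igf2 together, in percent, for each mesenchyme-like cluster, with 1 point per library. The Smoc2 and Sfrp2 clusters lie near 50%, while the Cldn10, Ifitm1 and Vcan clusters lie at or below 14.8% in every library.

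Dlk1 was nearly absent from the same Cldn10 cluster, at 2.19, 0, 9.26 and 2.09 CPM in WT 1, WT 2, Din-KO 1 and Din-KO 2. It was high in a dental pulp-like cluster led by Tac1, with Dlk1 itself among the leading genes, at 372, 121, 472 and 679.6 CPM. A mesenchyme-like cluster led by histone genes and Top2a, of cycling cells, held 361, 120, 562 and 657 CPM. That cluster had no subtype and is outside the contrasts with dental pulp-like cells. Among the odontoblast-like cells, those led by Dkk1, Smpd3 and Dmp1 held Dlk1 at 210.2, 110, 504 and 321 CPM. Those led by Bglap and Dspp held 7.82, 39.3, 94.5 and 42.4 CPM, lower in each library, although WT 1 contributed only 5 cells to them. Both genes are on the odontoblast list, but Bglap2, also a leading gene, is on the osteoblast list. That cluster scored 2.17 for the odontoblast list and 2.07 for the next list, so that bone-forming cells in it were not told apart.

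The other members marked further clusters. Mest and Ndn were low in the Bglap and Dspp cells, with means of 6.64 and 5.44 CPM, whereas Peg3 was still at 203, 264, 245 and 210 CPM there. Mest averaged 468 CPM and Peg3 673 CPM in a dental pulp-like cluster led by Gpha2, and Mest 445 CPM in the Ifitm1 cluster. The Gpha2 cluster scored highest for the chondrocyte list, at 1.61, beside 0.99 for dental pulp. It counts as dental pulp-like because subtypes were set only for pulp, follicle and odontoblasts. A dental follicle-like cluster led by Spp1 and Mmp13 held no Dlk1 UMI in either WT library and averaged 57.9 CPM of Meg3, below the other dental follicle-like clusters, while its Grb10 averaged 324 CPM. This cluster scored 2.02 for the dental follicle list and 1.97 for the next list, and Ibsp of the osteoblast list was among its leading genes.

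**Figure D4:**
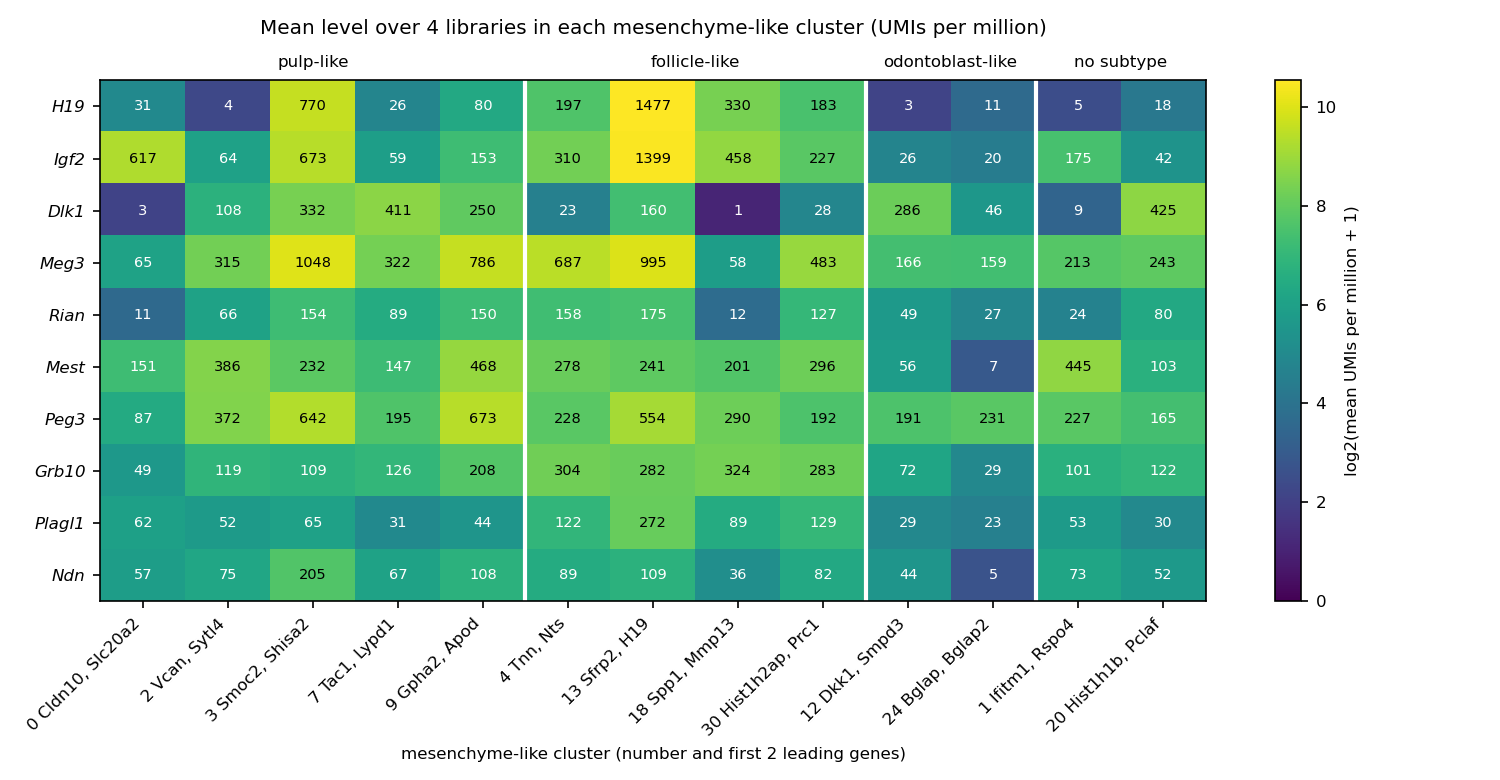
Mean level of the 10 imprinted genes in each of the 13 mesenchyme-like clusters, over 4 libraries, on a log scale of CPM. H19 and Igf2 are both high in the Sfrp2 cluster, only Igf2 is high in the Cldn10 cluster, and Dlk1 is highest in the cycling and Tac1 clusters.

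The comparison of Din-KO with WT asked whether loss of Din went with a change in these genes. Among the 6 classes tested, Dlk1 was higher in Din-KO without overlap in 4. No member was called in any of the 6 by edgeR, with genotype as the only term. The 4 are the mesenchyme-like class and the dental pulp, dental follicle and odontoblast groups within it, so they share cells and are not independent. The absence of overlap was not confined to the mesenchyme. In epithelium-like cells, which were not tested between genotypes, both Din-KO values of Dlk1 also lay above both WT values. In mesenchyme-like cells Dlk1 was at 81.7 CPM in WT 1, 42.8 CPM in WT 2, 238 CPM in Din-KO 1 and 188 CPM in Din-KO 2, and the genotypes did not overlap. The log2 fold change by edgeR was 1.74 ± 0.39 (SE, unadjusted p = 0.00849, adjusted p = 1.00 over 15217 genes). It was 1.82 ± 0.31 in dental pulp-like cells (adjusted p = 0.922), 2.13 ± 0.42 in dental follicle-like cells (adjusted p = 0.599) and 1.27 ± 0.56 in odontoblast-like cells (adjusted p = 1.00). In perivascular-like and endothelium-like cells the values were 0.04 ± 0.42 and -0.89 ± 0.77. The class-by-genotype term for Dlk1 in dental follicle-like against dental pulp-like cells was 0.30 ± 0.37, and the differences from the other classes were not tested.

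The calls over all genes put these values in context. By edgeR, 0% of genes were called in mesenchyme-like, dental follicle-like, odontoblast-like and perivascular-like cells and for the class-by-genotype term, 0.0148% in dental pulp-like and 0.054% in endothelium-like cells. At an unadjusted p under 0.05, 181 of 15217 genes passed in mesenchyme-like, 271 of 13490 in dental pulp-like and 350 of 12740 in dental follicle-like cells. Each count is below what this limit would pass on average if no gene differed. The genes share the same libraries, and whether the edgeR fit was conservative here was not tested. DESeq2 called Dlk1 in these 3 classes, at adjusted p of 0.0498, 2.8e-05 and 0.000441, where it called 0.131%, 0.0667% and 0.392% of genes higher in Din-KO. Of the members, Dlk1 was the only one at an unadjusted p under 0.05 by edgeR in these 3 classes and the only one DESeq2 called there. In dental follicle-like cells edgeR called Dlk1 when Din-KO 1 or Din-KO 2 was left out, in fits that leave 1 Din-KO library, assume it to vary like the WT pair, and so say little about the spread in Din-KO.

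For other members the genotypes differed without overlap in some classes. In mesenchyme-like cells every Din-KO value exceeded every WT value for Dlk1, Peg3 and Ndn, and the reverse held for Mest, beside 12% and 6.43% of all genes. In dental pulp-like cells Dlk1 and Ndn lay above and Igf2 and Mest below, beside 12.2% and 12.3%. In dental follicle-like cells Dlk1, Peg3, Plagl1 and Ndn lay above and 0 below, beside 15.3% and 8.68%, and in odontoblast-like cells Dlk1, Rian and Ndn above and Mest below, beside 14.2% and 5.35%. Mest in dental pulp-like cells was at 261, 328, 205 and 204 CPM in WT 1, WT 2, Din-KO 1 and Din-KO 2. Beside Dlk1, only H19 reached a log2 fold change of 1 in either direction in the 6 classes, at 1.44 ± 0.99 in odontoblast-like and -1.17 ± 0.77 in endothelium-like cells, with genotypes that overlapped and adjusted p of 1.00 by edgeR.

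H19 and Meg3 differed more between libraries of the same genotype than between genotypes. In mesenchyme-like cells H19 was at 60.8, 278, 111 and 331 CPM and Meg3 at 181, 584, 312 and 574 CPM in WT 1, WT 2, Din-KO 1 and Din-KO 2. WT 2 and Din-KO 2 were high and WT 1 and Din-KO 1 low, as they were for the share of dental follicle-like cells. In dental pulp-like cells alone H19 was at 31.9, 165, 65.6 and 204 CPM, with the same libraries high.

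Because the libraries differ in their mix of clusters, Dlk1 was also read in each of the 13 mesenchyme-like clusters. The Din-KO values exceeded both WT values in 11 of 13, the exceptions being the Cldn10 cluster and a small cycling follicle-like cluster in which 1 library had 8 cells. The 11 include the Spp1 cluster, whose Dlk1 rests on 0, 0, 2 and 1 UMIs in WT 1, WT 2, Din-KO 1 and Din-KO 2, under the limit that a count of 0 allows, the Bglap cluster with 5 cells in WT 1, and the Gpha2 cluster with 13 cells in Din-KO 2. Over all genes and mesenchyme-like clusters, for genes at a mean of at least 1 CPM in the cluster, this held for 14.3%. The next members were Meg3, in 4 clusters, and Rian and Ndn, in 3 each. Din-KO lay below WT without overlap in 6 clusters for Mest, 4 for Igf2, 3 for H19, 2 for Grb10 and 1 for Plagl1. The share of all genes below WT in the clusters is not given here, so these counts have no background to be read against. The clusters share their libraries and are not independent of each other.

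**Figure D5:**
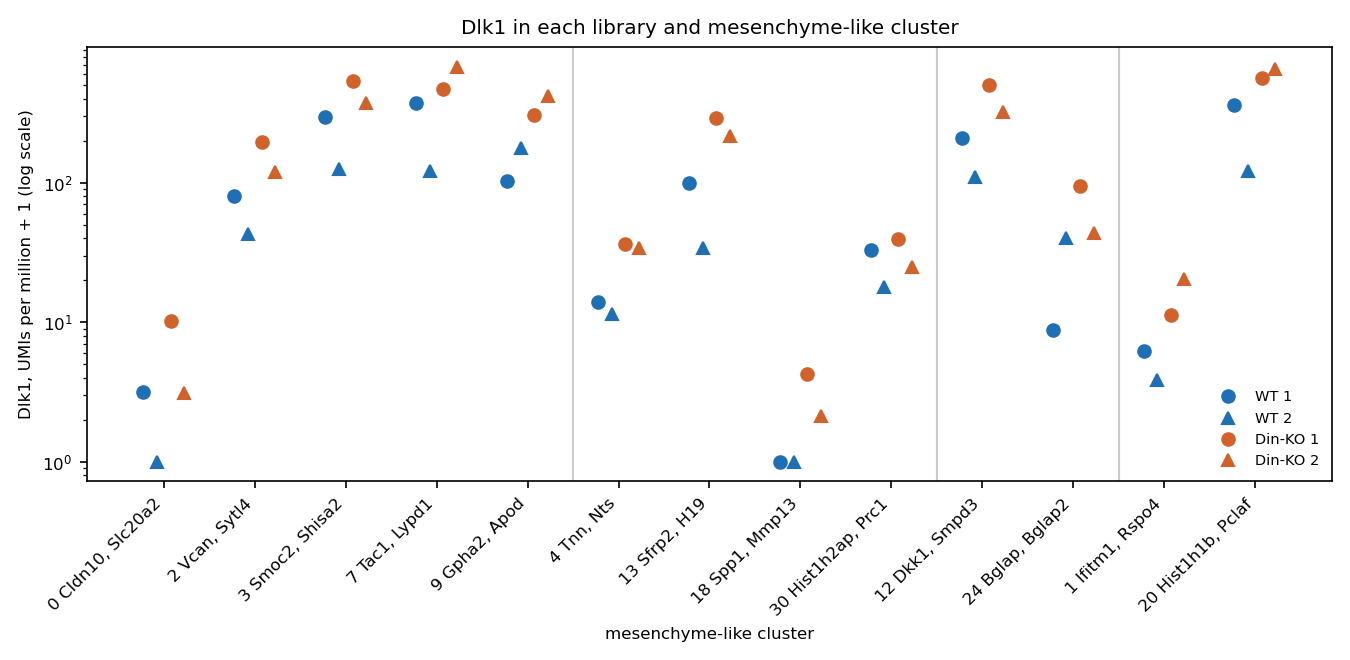
Dlk1 level in CPM on a log axis in each mesenchyme-like cluster, with 1 point per library, WT and Din-KO marked apart. The Din-KO points lie above the WT points in 11 of 13 clusters.

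The sex difference between the libraries was examined for Dlk1 by reading cells with Xist RNA and cells with Y-linked RNA apart. In mesenchyme-like cells with Xist RNA Dlk1 was at 81.6 CPM in WT 1, 42.7 CPM in WT 2, 254 CPM in Din-KO 1 and 144 CPM in Din-KO 2. The log2 fold change among these cells was 1.67, against 1.74 for all cells. In dental pulp-like cells with Xist RNA the values were 98.1, 67.9, 272 and 308 CPM, again without overlap. Dental follicle-like cells with Xist RNA gave 24.3, 12.7, 291 and 18.8 CPM, so that Din-KO 2 lay between the WT libraries and the higher value rested on Din-KO 1, with 69 cells. Din-KO cells with Y-linked RNA held 239.5 and 215 CPM in the mesenchyme-like class, in Din-KO 1 and Din-KO 2. They held 239.7 and 400 CPM in dental pulp-like cells and 46.0 and 91.1 CPM in dental follicle-like cells. In each of these classes the Xist cells were the higher in Din-KO 1 and the Y-linked cells in Din-KO 2.

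Other cell type markers were also higher in the Din-KO mesenchyme-like cells. Of 13 marker lists for other cell types, 5 were higher in Din-KO without overlap and 0 lower. The macrophage markers, all 7 of which were detected, summed to 45.8 and 73.8 CPM in the WT libraries and to between 110 and 131 CPM in the Din-KO libraries. Perivascular markers summed to 247 to 276 CPM in WT and 284 to 391 CPM in Din-KO, and endothelium markers to 21.6 to 28.8 CPM and 33.3 to 35.6 CPM. The monocyte or dendritic list and the B list were likewise higher, at 1.62 to 3.83 CPM against 5.43 to 20.9 CPM and at 10.1 to 11.1 CPM against 14.0 to 26.8 CPM. Dlk1 itself was at 0 to 2.50 CPM in macrophage-like cells and at 21.3 to 34.5 CPM in perivascular-like cells, below the mesenchyme-like level of each Din-KO library. In dental pulp-like cells the B list was higher in Din-KO, at 11.7 to 16.1 CPM against 18.8 to 47.1 CPM, while the macrophage, monocyte or dendritic, perivascular and endothelium lists overlapped. In dental follicle-like cells the monocyte or dendritic list was higher in Din-KO, at 2.18 to 4.05 CPM against 12.5 to 35.8 CPM, as were the chondrocyte and mast lists, and the osteoblast list was lower, at 1556 to 2873 CPM against 1187 to 1508 CPM, as was the osteoclast list. The part of these cell types in the Dlk1 values was not tested.

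A list of 42 other imprinted genes, none a member, was examined beside the members. In Din-KO against WT none of the 38 tested in mesenchyme-like cells was called by edgeR, with a median log2 fold change of 0.00 beside -0.02 for all genes tested, and none of the 34 tested in dental pulp-like or in dental follicle-like cells. At an unadjusted p under 0.05 there were 0, 2 and 3 in these classes, beside 181 of 15217, 271 of 13490 and 350 of 12740 genes in all. DESeq2 called 0, 0 and 1, beside 20, 9 and 53 genes in all. The largest log2 fold changes in mesenchyme-like cells were 0.83 for Ascl2, 0.57 for Slc22a18 and 0.56 for Usp29.

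Between dental follicle-like and dental pulp-like cells, 12 of the 35 other imprinted genes tested were higher in dental follicle-like cells, 7 were lower and 16 did not pass, with a median of 0.13 beside -0.02 for all genes. Of all genes tested, 20.5% were higher and 19.6% lower. Nap1l5 was higher by 3.50 on the log2 scale and Slc38a4, an amino acid transporter, by 1.89. Igf2r, the receptor that takes up IGF2 for degradation, was higher by 1.43, and Mirg, a noncoding RNA of the Dlk1 locus, by 0.92, with the same sign as Meg3 and Rian. The others that were higher were Ddc, Sfmbt2, Peg13, Zdbf2, Zim1, Sgce, Osbpl5 and Airn. Cobl, Ppp1r9a and Kcnq1ot1 were lower, with log2 fold changes of -1.65, -0.87 and -0.67, as were Zrsr1, Gnas, Copg2 and H13.

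Against dental pulp-like cells, odontoblast-like cells had 5 of 30 other imprinted genes higher, 11 lower and 14 that did not pass, with a median of -0.12 beside -0.04 for all genes. Of all genes tested, 19.3% were higher and 20.4% lower. Cdkn1c, a cyclin-dependent kinase inhibitor, was higher by 1.47, as were H13, Mcts2, Airn and Igf2r. Dio3, the enzyme that inactivates thyroid hormone and the last gene of the Dlk1 locus, had a log2 fold change of -4.47, whereas Dlk1 at its other end was at 0.62 and not called. Nnat and Peg10 were lower, at -2.46 and -2.33, with Cobl, Usp29, Sgce, Ppp1r9a, Inpp5f, Zrsr1, Blcap and Impact.

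The IGF pathway was read from a list of 17 genes for ligands, receptors and binding proteins, with Igf2r on both lists. None was called in Din-KO against WT, of 17 tested in mesenchyme-like, 15 in dental pulp-like and 17 in dental follicle-like cells. At an unadjusted p under 0.05 there were 2, 3 and 2, beside 181 of 15217, 271 of 13490 and 350 of 12740 genes in all. DESeq2 called 0, 0 and 1, beside 20, 9 and 53 genes in all. Igfbp3, a binding protein that carries IGFs, was at 241, 600.2, 655 and 1075 CPM in mesenchyme-like cells of WT 1, WT 2, Din-KO 1 and Din-KO 2, with a log2 fold change of 1.00 ± 0.52. Pappa, a protease that cleaves IGF binding proteins, was at 23.4, 26.3, 37.6 and 51.9 CPM, with 0.81 ± 0.23, and Pappa2, of the same family, had 0.76. For Igfbp3 and Pappa both Din-KO values lay above both WT values, as they did for 12% of all genes tested in this class. The WT values of Igfbp3 lay further apart than WT 2 and Din-KO 1.

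Between classes many of these genes differed in the same direction as Igf2. In dental follicle-like against dental pulp-like cells, 9 of the 17 genes were higher, 3 were lower and 5 did not pass, with a median of 1.08 beside -0.02 for all genes. Among all genes tested, 20.5% were higher and 19.6% lower. The other ligand of the pathway, Igf1, was higher by 3.94, the binding proteins Igfbp2, Igfbp4, Igfbp3 and Igfbp6 by 4.38, 1.55, 1.45 and 1.08, and the protease Pappa2 by 3.91. The RNA-binding proteins Igf2bp1 and Igf2bp2 were higher by 2.73 and 1.16. The receptor Igf1r and the receptor substrates Irs1 and Irs2 were lower, at -0.53, -1.53 and -1.11. In odontoblast-like against dental pulp-like cells 1 of 14 was higher, 9 were lower and 4 did not pass, with a median of -1.27 beside -0.04. Among all genes tested there, 19.3% were higher and 20.4% lower. The lower ones included Igfbp3 at -5.06, Igfbp5 at -4.29, Igfbp6 at -4.19, Igfbp7 at -3.56 and Igf1 at -1.45, together with Pappa, Igfbp4, Igf2bp2 and Igf1r, and Igf2r was higher by 0.64.

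The genes whose pattern was most like each member were sought by Pearson's r of log2(CPM + 1) over 36 sums, 9 classes in each of 4 libraries, among 16448 genes, as a description. Sums of the same library share its depth. Meg3 and Rian were each other's nearest gene, with r = 0.98. H19 and Igf2 reached 0.90, Dlk1 and Meg3 0.78, Dlk1 and Igf2 0.57 and Dlk1 and H19 0.45. Outside the members, the nearest genes were Wnt9a and C1s1 for H19, Tpm2 and Cys1 for Igf2 and Sgcd and Syde2 for Dlk1, with r from 0.90 to 0.96. For Meg3 they were Igsf3 and Fzd1, for Rian Pygo1 and Fzd1 and for Mest Npr2 and Parva. For Grb10 they were Jam3 and Nid1, for Plagl1 Twist1 and Mgat3 and for Ndn Slc25a4 and Sobp. Twist1 is a mesenchyme marker of the list from which the classes were named.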

How the data were processed

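Single cells from the proximal tissue of lower incisors were profiled in 2 WT and 2 Din-KO libraries of 15-day-old mice with a 10x kit that tags transcript ends. The authors made raw UMI counts per gene and cell with Cell Ranger on mm10 (GRCm38), and these deposited counts were used as they stand. Libraries held 32198098 to 54348039 UMIs. A cell was kept if it had 1000 or more genes and no more than 10% of its UMIs mitochondrial and 3% from hemoglobin, and the kept cells were clustered with Seurat 5.3.0 (2000 variable genes without the members, 30 principal components, resolution 1) after reciprocal PCA integration of the libraries and regression on cell cycle scores. Clusters were named from marker lists by scores whose limits were set with the data in hand, and 2 clusters (347 cells) stayed unnamed. Scrublet marked 25 cells (0.221%), too few to rely on, and none was removed, with the highest-scoring 5% left out in a further fit.

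UMI sums for each library and class were tested with edgeR 4.0.16 (R 4.3.3; TMM, filterByExpr, quasi-likelihood, Benjamini-Hochberg over all genes, threshold 0.05), with the library as a block in contrasts between classes. Intervals and limits for a count of 0 (3 UMIs) cover counting error only. The code was tested on simulated data. Alternatives were DESeq2 1.42.0, other size factors, fits with all genes, leaving out each library, a replicate block, other clusterings and cells with Xist RNA alone (at least 3 Xist UMIs). Named genes were the 10 members, the 2 genes most like each (not reported here for Peg3), and, of the lists of other imprinted and IGF pathway genes, those past the threshold or otherwise the 3 with the largest log2 fold change between genotypes in mesenchyme-like cells. The members and lists were chosen with earlier results of these data known. Nothing states that samples of a group came from separate litters, so p-values measure the spread between these libraries, which may be technical. In contrasts between classes, that spread is of the class difference within each library. Fewer cells expressing a gene and less RNA per cell cannot be told apart in these sums.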

Additional observations from a re-analysis of the deposited data

How the results depend on the processing

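The members called between dental follicle-like and dental pulp-like cells, 7 of 10, and odontoblast-like and dental pulp-like cells kept their direction under all alternatives. Between genotypes, where edgeR called 0 members, DESeq2 called 1, Dlk1, in mesenchyme-like, dental pulp-like and dental follicle-like cells, and edgeR without a filter on low counts called 1, Dlk1, in the last 2 of these. With each library left out in turn, 0 to 1 members were called in dental follicle-like cells. Without the filter, 5 members instead of 3 were called between mesenchyme-like and perivascular-like cells, with Peg3 and Igf2 added. The causes were not tested. For H19, Meg3 and Rian, direction in Din-KO changed with the library left out, and with 2 libraries of each genotype the spread between them is known only roughly.

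WT and Din-KO libraries share replicate numbers, but nothing states that a number pairs them, and the names of the deposited files number the libraries otherwise than the titles, which were followed here. Deviations from the group means of WT 1 and Din-KO 1 correlated at 0.786 over 15217 genes. With the replicate number as a block, edgeR called 1 member, Dlk1, in mesenchyme-like cells, 5 in dental pulp-like cells (Dlk1, Mest at -0.51, H19 at 0.67, Meg3 at 0.78 and Rian at 0.53) and 1, Dlk1, in dental follicle-like cells, and 271, 385 and 96 genes in all. The block changed no other call, and turned Dlk1 in perivascular-like cells from 0.04 to -0.016.

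No other log2 fold change that turned had been called. Without the 5% of cells with the highest doublet score, Dlk1 in perivascular-like cells (Din-KO against WT) was -0.59, Peg3 in dental follicle-like against dental pulp-like cells 0.016 and Plagl1 in mesenchyme-like against perivascular-like cells 0.10, the last being 0.046 without the filter. With members among the variable genes, Dlk1 in perivascular-like cells was -0.010, Mest in dental follicle-like against dental pulp-like cells -0.25 and Plagl1 in dental pulp-like cells (Din-KO against WT) 0.055. At resolution 0.5 that value for Mest was -0.081, and Grb10 and Rian in odontoblast-like against dental pulp-like cells were 0.048 and 0.11. In cells with Xist RNA alone, H19 was -0.69 in dental pulp-like and -0.21 in mesenchyme-like cells, Mest -0.17 in dental follicle-like cells, and Plagl1 -0.11 and Rian -0.011 in mesenchyme-like cells, all for Din-KO against WT. Leaving out 1 library gave ranges that crossed 0. For Din-KO against WT these were, in mesenchyme-like cells, -0.80 to 0.46 for Grb10, -0.63 to 1.81 for H19, -0.34 to 0.027 for Igf2, -0.41 to 1.24 for Meg3, -0.18 to 0.47 for Plagl1 and -0.32 to 0.89 for Rian. In dental pulp-like cells they were -0.65 to 0.11 for Grb10, -0.50 to 1.98 for H19, -0.0075 to 0.46 for Peg3 and -0.34 to 0.041 for Plagl1. In dental follicle-like cells they were -0.51 to 0.13 for Grb10, -0.43 to 1.02 for Meg3, -0.17 to 0.23 for Mest and -0.29 to 0.58 for Rian, and in perivascular-like cells -0.37 to 0.38 for Dlk1. The class-by-genotype term for Dlk1 ran from -0.28 to 0.89. In mesenchyme-like against perivascular-like cells the ranges were -0.10 to 0.20 for Meg3, -0.14 to 0.10 for Plagl1 and -0.065 to 0.36 for Rian, and in dental follicle-like against dental pulp-like cells -0.14 to 0.12 for Mest and -0.086 to 0.16 for Peg3.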
